A study of Mus musculus with 3 samples.

Results

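The genes for the ligands, receptors and latent binders of transforming growth factor beta (TGF-beta) were followed through the cells of the molar root. They are 10 genes of the 21446 whose identifiers were shared by the 3 libraries: the 3 ligands Tgfb1, Tgfb2 and Tgfb3, the 3 receptors Tgfbr1, Tgfbr2 and Tgfbr3, and the 4 latent TGF-beta binding proteins Ltbp1, Ltbp2, Ltbp3 and Ltbp4. All 10 were chosen by gene symbol. The cells came from mandibular molars of mice with a Pthrp-mCherry knock-in allele, in which the reporter marks cementoblasts (the cells that lay down cementum on the tooth root) and their precursors. No other allele or treatment was given for any group. The mCherry+ cells were sorted by flow cytometry from pooled mandibles at postnatal day 15 (P15), day 25 (P25) and 8 weeks (P8w), and each age gave 1 single-cell library on the 10x Chromium 3′ platform, so no age had a replicate. Both sexes were pooled, and the number of animals in a library was not given.

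TGF-beta is made as a precursor whose propeptide stays bound to the growth factor and keeps it silent. The propeptide is usually tethered to a latent binding protein (LTBP), which is cross-linked into the fibrillin microfibrils and fibronectin of the matrix, and integrins or proteases then free the ligand. Free ligand binds TGFBR2, which recruits and phosphorylates TGFBR1, and TGFBR1 in turn phosphorylates SMAD2 and SMAD3. TGFBR3, or betaglycan, is a co-receptor without kinase activity that binds TGF-beta2 with high affinity. In teeth and bone the pathway is known for its roles in matrix production, in root formation and in the turnover of mineralized tissue, where the matrix stores latent ligand.

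The 3 libraries held 27089 cells, from 12926 at P15 to 5192 at P8w, with totals of 188157997 counts of unique molecular identifiers (UMIs) at P15, 169712592 at P25 and 46234378 at P8w. Levels at P25 come from another Cell Ranger version and a larger gene list, which cannot be told apart from the age. The libraries shared 13 to 26 cell barcodes per pair.

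Cells were grouped by a gate gene. A cell passed a gate when it held at least 2 UMIs of that gene at 3 or more times the mean level of its library. The gates were Ibsp and Ifitm5 (for the alpha and beta types of cementoblast), Hand2 (periapical mesenchyme), Pappa2 (precursors), Rgs5 (mural cells of vessels), Krt14 (epithelium) and Ptprc (leukocytes). At P15, P25 and P8w they took 706, 514 and 292 cells for Ibsp, 616, 644 and 250 for Ifitm5, and 244, 712 and 418 for Hand2. Pappa2 took 639, 43 and 22 cells, Rgs5 228, 262 and 271, Krt14 1038, 708 and 130, and Ptprc 778, 208 and 19. Most cells, 66.0%, 60.4% and 68.2% at P15, P25 and P8w, passed no gate. The levels, shares and tests below do not cover these ungated cells. In all, 370, 193 and 118 cells passed both the Ibsp and the Ifitm5 gate, and those that passed a further gate were left out. Of the Ifitm5-gated cells, 257, 463 and 149 failed the Ibsp gate, and the rest passed it. Levels are CPM, the UMIs of a gene in the summed cells of a gate scaled to a common total of the shared genes, with exact Poisson 95% intervals that cover counting error only.

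The labels were checked against other markers. All 4 Hand2-gate, 4 Krt14-gate and 6 Ptprc-gate markers were highest in their own gate in every library, as were 3 or 4 of 4 for Ifitm5 and 2 or 3 of 4 for Ibsp. The Rgs5 gate held mural cells only at P15, where 7 of 7 mural markers were highest in it, against 2 at P25 and 1 at P8w. The mural receptor Notch3 was at 553 CPM in it at P15, 29.0 at P25 and 9.82 at P8w, and the contractile gene Myh11 at 117, 1.74 and 0.677 CPM. The later Rgs5-gated cells are therefore called only by their gate. Of 2 Pappa2-gate markers, 2 were highest in their own gate at P15, 1 at P25 and 1 at P8w. Their sum in it was 273, 132 and 70.6 CPM, but 1 of them, Col13a1, was at 169, 10.5 and 0 CPM. The 43 Pappa2-gated cells at P25 also carried 645 CPM of 4 epithelial markers, against 45.6 at P15 and 16.8 at P8w in this gate. The 4 Hand2-gate markers summed to 671, 1305 and 4815 CPM in it, against 3676, 6033 and 6991 CPM in the Hand2 gate. The later Pappa2-gated cells, too, are called only by their gate. The Hand2 gate kept its markers but gained cementoblast genes with age. Ibsp itself was at 351, 2934 and 4766 CPM in it at P15, P25 and P8w, and the 4 Ibsp-gate markers summed to 146, 292 and 388 CPM, none of them at 0. The Ibsp gate in turn gained periapical genes. In it the 4 Hand2-gate markers summed to 415, 1523 and 2405 CPM, and Hand2 was at 1.36, 21.9 and 79.4 CPM. A further 24, 368 and 191 cells passed both the Hand2 and the Ibsp gate and were left out. The 6 leukocyte markers summed to 77.9 to 304 CPM in the 5 mesenchymal gates at P15 but to 6.32 to 25.4 CPM at P25 and P8w. In the Ptprc gate itself they summed to 64322, 15461 and 25309 CPM at P15, P25 and P8w. Whether that gate took other cells with age was not tested. The part of these shifts in the results below was not tested, and single results are given without the doubtful libraries.

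Tgfb1 (ENSMUSG00000002603, GRCm38 chr7:25687002-25705077, plus strand) and Tgfb2 (ENSMUSG00000039239, chr1:186622792-186705989, minus strand) are shown with their promoters, because their levels moved apart between P15 and the later ages in the Ibsp, Ifitm5 and Hand2 gates. The windows run from 250 bases before to 50 after the RefSeq start (GRCm38.p6), chr7:25686752-25687051 for Tgfb1 and chr1:186705940-186706239, minus strand, for Tgfb2, each written 5′ to 3′. Capitals mark GGGCGG, the GC box bound by factors of the SP family, in the window of Tgfb1. In the window of Tgfb2 they mark TGACG, which is the core of the element through which cyclic AMP signals act. They also mark CACGTG, an E-box of the kind bound by helix-loop-helix factors, and lastly TATAAA, known as the TATA box. Both strands were searched for every motif, so a capital stretch may be the reverse complement.
Tgfb1: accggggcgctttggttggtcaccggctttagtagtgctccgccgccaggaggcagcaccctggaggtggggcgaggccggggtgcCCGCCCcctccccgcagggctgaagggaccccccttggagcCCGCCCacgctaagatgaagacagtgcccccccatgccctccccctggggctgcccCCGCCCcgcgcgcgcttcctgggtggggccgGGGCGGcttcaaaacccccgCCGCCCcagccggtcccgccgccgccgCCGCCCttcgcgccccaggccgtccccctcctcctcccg
Tgfb2: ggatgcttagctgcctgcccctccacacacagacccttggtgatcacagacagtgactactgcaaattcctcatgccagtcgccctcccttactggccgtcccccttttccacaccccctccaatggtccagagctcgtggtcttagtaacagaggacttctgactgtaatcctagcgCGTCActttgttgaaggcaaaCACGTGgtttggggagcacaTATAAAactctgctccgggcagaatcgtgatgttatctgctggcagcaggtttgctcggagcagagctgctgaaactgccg

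The Tgfb1 window, with a GC content of 77%, held 6 matches of the GC box and none of the other motifs. The Tgfb2 window, with a GC content of 54.3%, held 1 match each of TGACG, the E-box and the TATA box, starting at -72, -51 and -31 from the start, and no GC box. Of 32851 promoters in the table, 35.7% held the GC box, 20.8% TGACG (which is also part of the full element TGACGTCA, in 1.79%), 13.6% the TATA box and 7.15% the E-box. Of the other members with a promoter in the table, Ltbp1 had a window with the full element, at -73 from the start. These matches describe the letters only.

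Tgfb1 was high in the cementoblast gates and low in epithelial cells. In the Ibsp gate its level was 209 CPM at P15, 299 at P25 and 304 at P8w, and in the Ifitm5 gate 219, 339 and 337 CPM. In the Hand2 gate it was 155, 235 and 256 CPM. All 3 gates stood lowest at P15. The Pappa2 gate went the other way, from 285 CPM (95% interval 276 to 294) at P15 to 182 at P25 and 148 (108 to 199, from 22 cells) at P8w. In the Rgs5 gate the level was 85.4, 128 and 111 CPM, and in the Krt14 gate 78.0, 64.6 and 42.4 CPM. Ptprc-gated cells held 166, 365 and 282 CPM. By mean over libraries, leaving out the 19 leukocytes of P8w, the order was Ifitm5, Ibsp, Ptprc, Hand2, Pappa2, Rgs5 and Krt14. From Ifitm5 to Pappa2 the ranges of neighbours overlapped, whereas the Rgs5 gate lay below all of these in range and the Krt14 gate below Rgs5.

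Tgfb2, the ligand that relies most on betaglycan for binding, was highest in the younger periapical and precursor cells. The Hand2 gate held 193 CPM (181 to 206) at P15 but 66.7 at P25 and 61.9 (54.8 to 69.7) at P8w. In the Pappa2 gate the level was 178, 84.0 and 90.8 CPM. Both gates were highest at P15 by a margin wider than the counting intervals. The Rgs5 gate did not follow this course, with 123, 91.2 and 124 CPM. Tgfb2 was lower in the cementoblast gates, at 61.4, 35.9 and 46.4 CPM for Ibsp and 57.3, 33.7 and 17.7 CPM for Ifitm5. Epithelial cells held a steady 69.5, 67.0 and 61.8 CPM. Leukocytes held 18.3 and 25.2 CPM at P15 and P25, and 0 UMIs in 19 cells at P8w, which allows up to 14.1 CPM (3 counts).

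Tgfb3 (ENSMUSG00000021253, chr12:86056745-86079041, minus strand), which overlaps Ttll5 on the other strand, set the gates apart and varied little with age in the cementoblast and Hand2 gates. It stood at 105, 96.3 and 97.9 CPM in the Hand2 gate at P15, P25 and P8w, against 52.5, 51.9 and 54.4 CPM in the Ibsp gate and 41.9, 35.2 and 38.5 CPM in the Ifitm5 gate. The ranges of these 3 gates did not overlap. The Pappa2 gate held 127, 127 and 97.5 CPM and the Rgs5 gate 91.8, 130 and 104 CPM, both overlapping the Hand2 gate. Epithelial cells lay below the mesenchymal range, at 22.4, 6.32 and 3.76 CPM, and leukocytes held 14.1, 21.8 and 4.69 CPM.

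**Figure D1:**
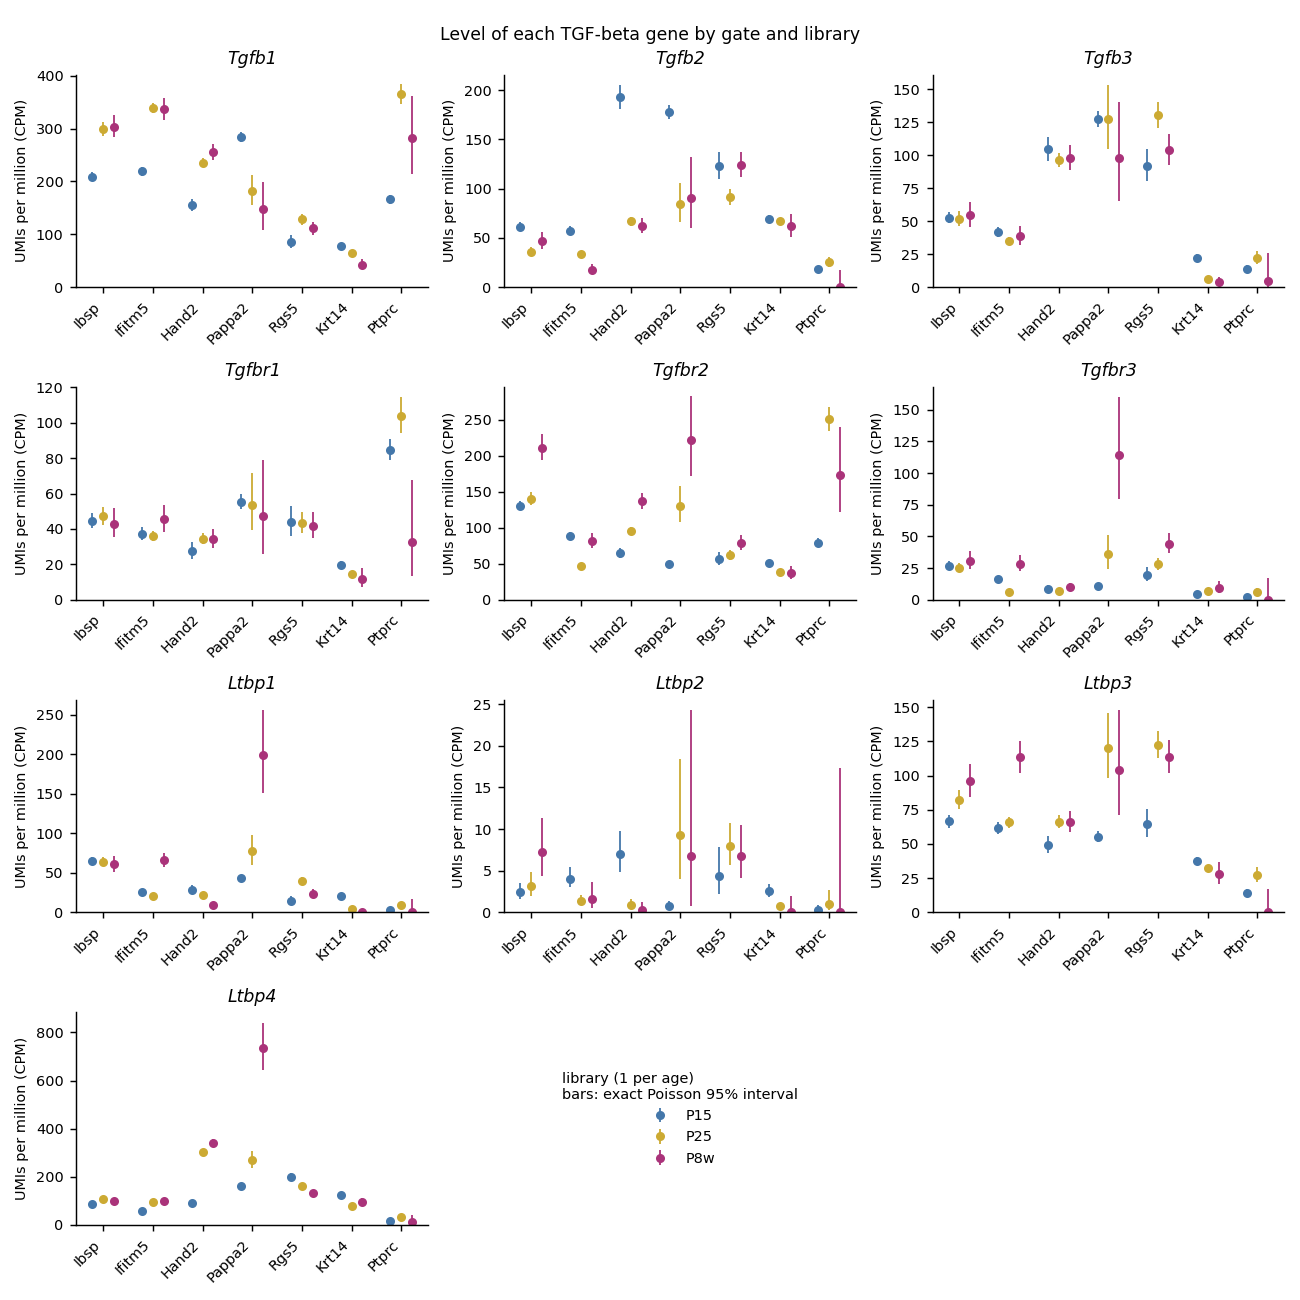
Level of each gene (CPM, linear axis from 0) in the summed cells of the 7 gates, with 1 point per library (P15, P25 and P8w) and exact Poisson 95% intervals as bars. Tgfb1 sits lowest in the Krt14 gate (42.4 to 78.0 CPM), Tgfb2 is highest in the Hand2 and Pappa2 gates at P15 (193 and 178 CPM), and Ltbp4 reaches 736 CPM in the 22 Pappa2-gated cells at P8w.

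Put together, the ligand UMIs of the Hand2 gate changed in make-up more than in sum. The 3′ kit counts 1 end per transcript, so UMIs were not divided by gene length, and the shares are compared between gates and ages only. The summed ligand level in the Hand2 gate was 452, 398 and 416 CPM at P15, P25 and P8w, while the share of Tgfb1 in it went from 34.2% (exact binomial 95% interval 32.3 to 36.3) to 59.0% and 61.6% (59.3 to 63.8). The share of Tgfb2 went from 42.7% to 16.8% and 14.9%, and that of Tgfb3 stayed at 23.1%, 24.2% and 23.5%. In the Ifitm5 gate Tgfb1 made up 68.8%, 83.1% and 85.7% of ligand UMIs and Tgfb2 18.0%, 8.26% and 4.49%. The Ibsp gate shifted in the same direction between P15 and P25, with Tgfb1 at 64.8%, 77.3% and 75.1%. In the Rgs5 gate Tgfb1 made up 28.4%, 36.6% and 32.8%, below every library of the other mesenchymal gates except the Hand2 gate at P15. In the Pappa2 gate the sum fell with age, at 590, 393 and 336 CPM. Its Tgfb1 share was 48.3% (47.1 to 49.4), 46.3% (40.9 to 51.8) and 44.0% (34.1 to 54.3), with overlapping intervals. In leukocytes the sum was 199, 412 and 286 CPM, and Tgfb1 made up 83.7% and 88.6% at P15 and P25, and 98.4% of only 61 ligand UMIs at P8w.

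**Figure D2:**
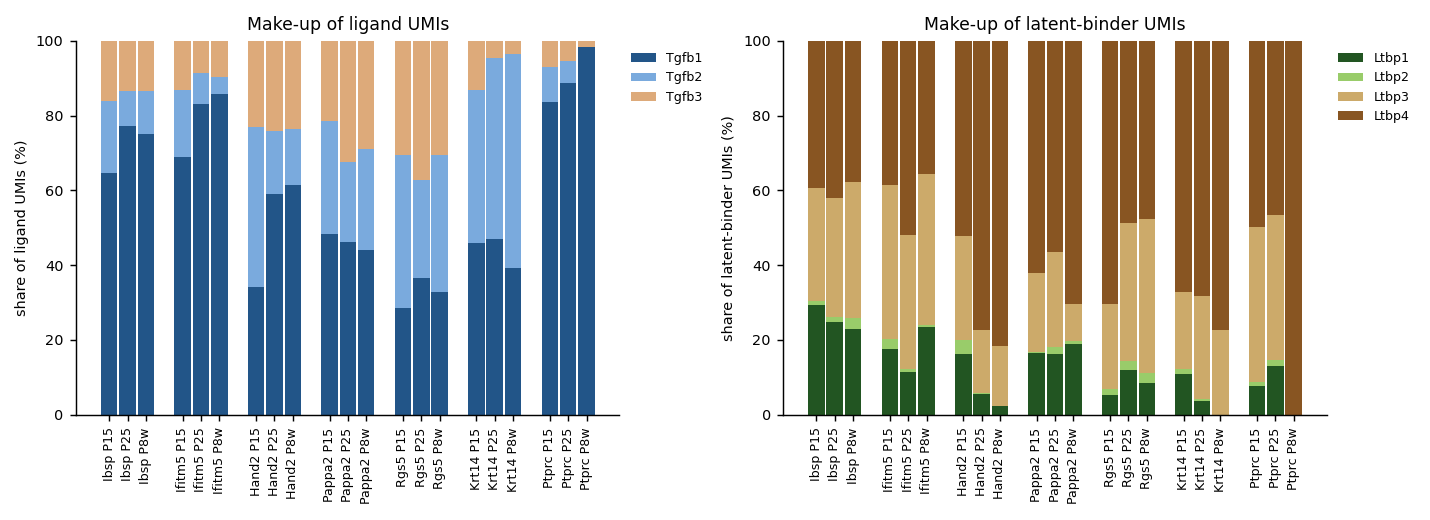
Share (%) of the ligand UMIs (left) and of the latent-binder UMIs (right) that each gene took, as stacked bars for each gate and library. Tgfb1 takes 34.2% of the ligand UMIs of the Hand2 gate at P15 and 61.6% at P8w, and Ltbp4 takes 52.2% and 81.7% of its latent-binder UMIs; the Ptprc gate at P8w rests on 61 ligand and 3 binder UMIs.

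Of the receptors, Tgfbr1 (ENSMUSG00000007613, chr4:47353222-47414931, plus strand), the type I kinase, varied least among the mesenchymal gates. Ibsp-gated cells held 44.6, 47.0 and 42.9 CPM at P15, P25 and P8w, Ifitm5-gated cells 37.2, 36.1 and 45.4, Rgs5-gated cells 44.1, 43.4 and 41.6, and Pappa2-gated cells 55.3, 53.7 and 47.1. The Hand2 gate was somewhat lower at 27.4, 34.5 and 34.3 CPM and did not overlap the other mesenchymal gates. The Krt14 gate lay lower again at 19.8, 14.8 and 11.8 CPM. Leukocytes were highest at P15 and P25, with 84.7 and 104 CPM, and held 32.8 CPM (13.2 to 67.7, from 7 UMIs) at P8w.

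Tgfbr2 (ENSMUSG00000032440, chr9:116084293-116175360, minus strand), the type II kinase that binds the ligand first, stood higher in the alpha than in the beta gate of every library. Its level was 131, 140 and 211 CPM in the Ibsp gate and 88.9, 46.2 and 81.4 CPM in the Ifitm5 gate. The lowest Ibsp-gate value lay above the highest Ifitm5-gate value, and both gates of a library came from the same sorted pool. The Hand2 gate went from 64.4 to 95.7 and 136 CPM and the Pappa2 gate from 49.8 to 131 and 222 CPM. Rgs5-gated cells held 56.5, 62.0 and 78.9 CPM, and epithelial cells 50.4, 38.3 and 37.1 CPM. Leukocytes held 79.2 CPM at P15, 250 at P25 and 174 at P8w.

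Tgfbr3 (ENSMUSG00000029287, chr5:107106570-107289629, minus strand), the co-receptor betaglycan, was a low gene. The Ibsp gate held 27.0, 25.1 and 30.7 CPM and the Hand2 gate 8.39, 7.16 and 9.87 CPM, with no overlap. In the Ifitm5 gate it was 16.2, 6.15 and 28.4 CPM, a course with its lowest value at P25. In the Rgs5 gate it was 19.6, 28.1 and 44.0 CPM, and in the Pappa2 gate 11.2, 36.2 and 114 CPM (79.2 to 160, from 34 UMIs). Epithelial cells and leukocytes held at most 9.13 CPM.

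The latent binders differed most in their courses. Ltbp4 (ENSMUSG00000040488, chr7:27305136-27337692, minus strand), whose protein is also needed for elastic fibre assembly, went from 93.1 CPM at P15 to 303 at P25 and 339 at P8w in the Hand2 gate. The Pappa2 gate went from 163 to 268 and 736 CPM (642 to 841, from 22 cells). The Rgs5 gate ran the other way, at 198 CPM in the mural cells of P15 and 162 and 132 CPM later. The Ibsp gate held 86.6, 109 and 99.3 CPM, the Ifitm5 gate 57.9, 94.6 and 99.7, and the Krt14 gate 123, 80.1 and 95.1. In these 3 gates the ranges over the libraries overlapped. Leukocytes stood below all other gates at 17.0, 32.6 and 14.1 CPM. At P15 and P8w a further Ltbp4 identifier held 0 UMIs.

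Ltbp1 (ENSMUSG00000001870, chr17:75005568-75392512, plus strand), a main carrier of latent TGF-beta1 in the matrix, was steady in the Ibsp gate at 64.8, 64.3 and 60.6 CPM. In the Ifitm5 gate it was 26.3 and 20.9 CPM at P15 and P25 but 65.6 CPM at P8w. In the Hand2 gate it was 28.8, 22.0 and 9.87 CPM. The cementoblast gates therefore differed at P15 and P25 and were within each other's counting intervals at P8w. The Pappa2 gate held 43.5, 77.0 and 198 CPM and the Rgs5 gate 14.8, 39.3 and 23.7 CPM. Epithelial cells held 20.2 and 4.29 CPM, and 0 UMIs at P8w, which allows up to 1.61 CPM.

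Ltbp3 (ENSMUSG00000024940, chr19:5740904-5758532, plus strand), which is needed for normal bone and tooth formation, was spread evenly. It held 66.4, 82.2 and 95.8 CPM in the Ibsp gate, 61.5, 65.8 and 113 in the Ifitm5 gate, and 49.3, 66.1 and 66.0 in the Hand2 gate. The Rgs5 gate held 64.5, 122 and 113 CPM and the Pappa2 gate 55.2, 120 and 104 CPM. Each mesenchymal gate was lowest at P15, and each library of each mesenchymal gate lay above every Krt14 and Ptprc value, which were at most 37.3 CPM. Ltbp2 (ENSMUSG00000002020, chr12:84783212-84876532, minus strand), the member that is not thought to bind latent TGF-beta, was under 10 CPM in every gate and library, between 0 and 9.34 CPM, and the ranges of all neighbours in its order overlapped. The summed binders went from 178 CPM at P15 to 392 and 415 CPM in the Hand2 gate and from 263 to 475 and 1046 CPM in the Pappa2 gate. Ltbp4 made up 52.2%, 77.3% and 81.7% of the sum in the Hand2 gate and Ltbp1 16.2%, 5.60% and 2.38%.

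The gates were compared in edgeR (quasi-likelihood test, Benjamini-Hochberg adjustment over 13592 genes, a gene being called at adjusted p under 0.05), with UMIs summed per library and gate and the libraries as replicates. These differ in age, so the spread between replicates includes the change with age. Fold changes are log2 with their standard error (SE). Shares of all genes called are at the adjusted threshold. The share passing an unadjusted p under 0.05 was not counted over all genes, so counts at that threshold stand without a background.

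Between the beta and alpha gates (Ifitm5 against Ibsp), no member of the 10 was called by edgeR or DESeq2, against 0.515% of all genes called higher and 0.155% called lower. At an unadjusted p under 0.05 there was 1, Tgfbr2, lower in the Ifitm5 gate by a log2 difference of -0.99 ± 0.42 (SE, n = 3 libraries a gate, edgeR adjusted p = 0.367) and lower in 3 of 3 libraries. When Ifitm5-gated cells that also passed the Ibsp gate were left out, an alternative chosen after seeing the data, its difference was -1.56 and was called (edgeR adjusted p = 0.0437). Without P15 it was called too (edgeR adjusted p = 0.0420). The median log2 difference of the 10 members was -0.24, against -0.01 over all genes.

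Between periapical and Ibsp-gated cells, none was called by either tool (all genes, 0.464% higher and 1.13% lower), and 6 passed an unadjusted p of 0.05. Of these, Tgfb2, Tgfb3 and Ltbp4 had positive differences of 1.08 ± 0.43, 0.83 ± 0.38 and 1.24 ± 0.47, and Tgfbr1, Tgfbr3 and Ltbp1 negative ones of -0.56 ± 0.18, -1.79 ± 0.62 and -1.71 ± 0.77 (SE, edgeR adjusted p from 0.154 to 0.355). A fit of these 2 gates alone called Tgfb3, Tgfbr3 and Ltbp1, and leaving out P15 called Ltbp4. In Pappa2-gated against Ibsp-gated cells none was called by edgeR (all genes, 0.493% higher and 0.581% lower) and 3 passed an unadjusted p of 0.05. They were Tgfb2 at 1.27 ± 0.44, Tgfb3 at 1.09 ± 0.39 and Ltbp4 at 1.81 ± 0.48, higher in 3 of 3 libraries each. Ltbp4 (edgeR adjusted p = 0.0888) was called in 4 of 16 alternatives, DESeq2 among them.

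The Rgs5 gate differed from the mean of the other 4 mesenchymal gates in 1 member. Tgfb1 was lower, with a log2 difference of -1.27 ± 0.30 (SE, edgeR adjusted p = 0.0213), where 4.6% of all genes were called higher and 1.23% lower. It was lower than in each of those gates in 3 of 3 libraries. With the Rgs5 and Pappa2 gates taken from P15 alone, where the mural markers were present, the difference was -1.89 but the call was lost (edgeR adjusted p = 0.0620), and it was lost without P25 (edgeR adjusted p = 0.211) and without P8w (0.183). Without P15, Tgfb2 and Tgfb3 were called higher besides.

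Epithelial cells were lower than the mesenchymal gates in 7 of the 10 members and higher in none, where 26.7% of all genes were called lower and 27.8% higher. The log2 differences were -1.63 ± 0.31 for Tgfb1 and -2.61 ± 0.36 for Tgfb3, -1.29 ± 0.16 for Tgfbr1, -1.10 ± 0.35 for Tgfbr2 and -1.61 ± 0.54 for Tgfbr3, and -2.05 ± 0.68 for Ltbp1 and -1.19 ± 0.28 for Ltbp3 (SE, edgeR adjusted p from 5.15e-06 to 0.0183). Tgfb2 was not called, at -0.08 ± 0.33 (edgeR adjusted p = 0.874), nor was Ltbp4, at -0.62 ± 0.38 (0.177). Without P25 the count was 4 and without P8w 3, and with the Rgs5 and Pappa2 gates from P15 alone Ltbp1 was not called (edgeR adjusted p = 0.0655). Tgfb1, Tgfb3 and Tgfbr1 were called in all 16 alternatives.

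Leukocytes, from the 2 libraries with at least 20 Ptprc-gated cells, were higher than the mesenchymal gates in Tgfbr1, at 1.21 ± 0.15 (SE, edgeR adjusted p = 5.62e-06), and lower in 6 members. All genes were called higher in 26.5% and lower in 22.1%. Those lower were Tgfb2 at -1.77 ± 0.46 and Tgfb3 at -2.08 ± 0.42, Tgfbr3 at -2.53 ± 0.71, Ltbp1 at -2.90 ± 0.91, Ltbp3 at -1.99 ± 0.36 and Ltbp4 at -2.74 ± 0.54 (edgeR adjusted p from 0.000237 to 0.0151). Tgfbr2 stood at 0.71 ± 0.36 and was called only with the library as a block (edgeR adjusted p = 0.0356 against 0.112), with 3 UMIs as the gate minimum, without P15, or with the Rgs5 and Pappa2 gates from P15 alone. Tgfb1 was not called, at 0.33 ± 0.31 (0.400). Without P25, which leaves 1 leukocyte sum, the count went from 7 to 3.

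**Figure D3:**
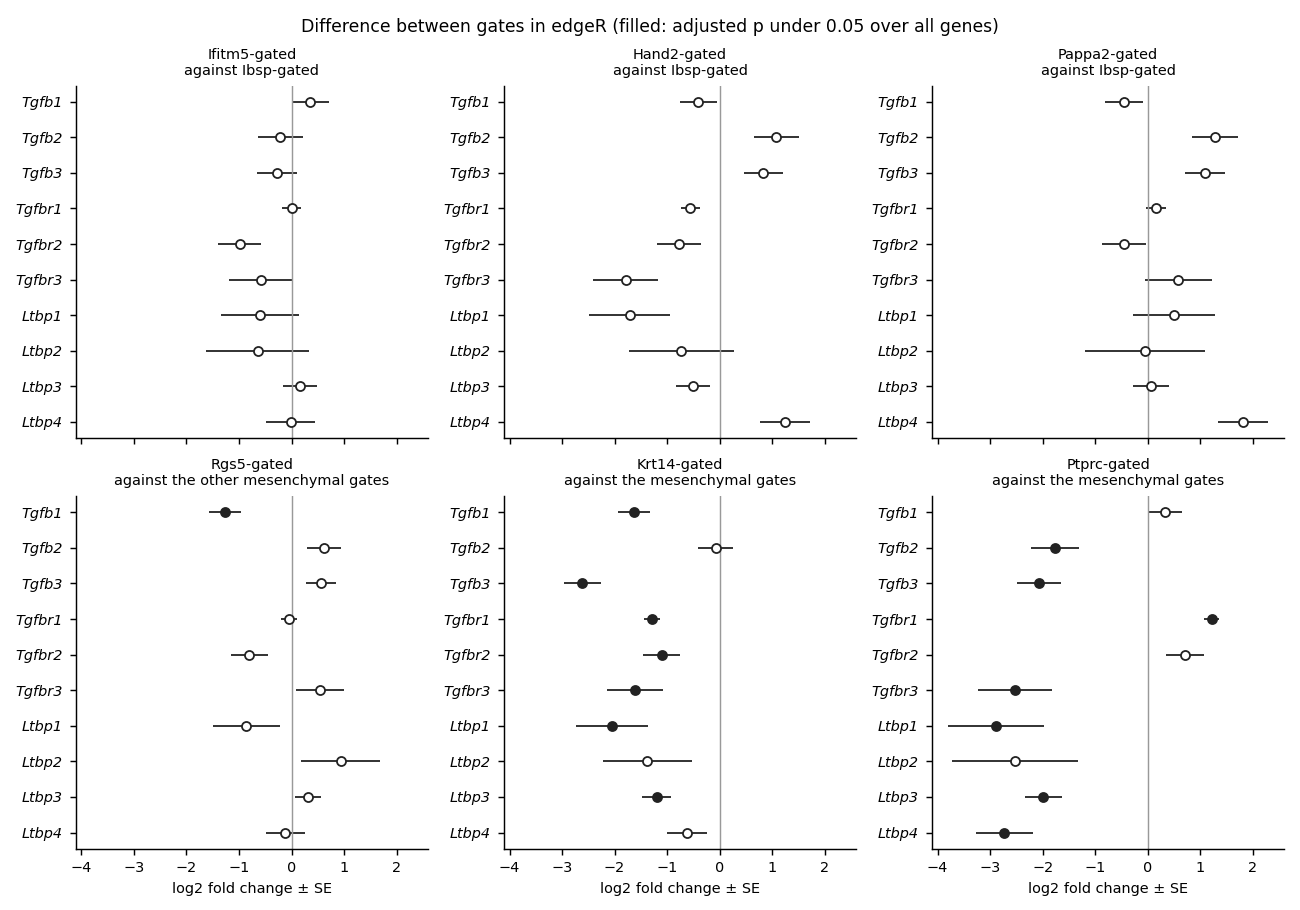
Log2 fold change ± SE of each member in the 6 edgeR comparisons between gates, with filled points for an adjusted p under 0.05. The first 3 panels hold no filled point, Tgfb1 alone is filled in the Rgs5 panel (-1.27), 7 members are filled below 0 in the Krt14 panel, and 6 below and 1 above 0 in the Ptprc panel.

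With age, the Ibsp gate had the fewest members past 2-fold and the Hand2 and Pappa2 gates the most. With 1 library per age there was no test, so changes past 2-fold between P15 and P8w are counted among members at 10 CPM or more in the higher library, with exact binomial 95% intervals of the ratio that cover counting error only. In the Ibsp gate, 0 of 9 members passed 2-fold, where 2.72% of all genes counted were higher and 3.72% lower. The widest ratio there was Tgfbr2 at 1.62 (1.46 to 1.79). The 4 Hand2-gate markers went from 415 CPM at P15 to 2405 at P8w in this gate, and their part in its ratios was not tested. In the Ifitm5 gate Ltbp1 was 2.50 times higher (2.08 to 2.99) and Tgfb2 3.24 times lower (2.47 to 4.34) at P8w, of 9 members, beside 2.61% and 4.67% of all genes. Its 4 own markers summed to 8184 CPM at P15 and 29707 at P8w. Whether the gate took other cells with age was not tested.

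In the Hand2 gate, 4 of 8 members passed 2-fold, where 5.67% of all genes were higher and 5.39% lower. Ltbp4 was 3.64 times higher (3.28 to 4.05) and Tgfbr2 2.12 times higher (1.85 to 2.43) at P8w, while Tgfb2 was 3.11 times lower (2.72 to 3.57) and Ltbp1 2.92 times lower (2.07 to 4.20). Ltbp4 and Tgfb2 had already passed 2-fold at P25. The level of Ibsp in this gate went from 351 CPM at P15 to 4766 at P8w, and its part in these ratios was not tested. In the Pappa2 gate, 4 of 9 passed, all higher, where 16.2% of all genes were higher and 8.4% lower. They were Tgfbr3 at 10.2 times (6.83 to 14.99), Ltbp1 at 4.56 (3.42 to 5.97), Ltbp4 at 4.51 (3.91 to 5.19) and Tgfbr2 at 4.45 (3.40 to 5.74). This gate held 639 cells at P15 and 22 at P8w. Between them it lost Col13a1, 1 of its 2 markers, and gained the Hand2-gate markers. A change of level therefore cannot be told apart from a change in which cells the gate took. In the Rgs5 gate 1 of 9 passed, Tgfbr3 at 2.24 times higher (1.60 to 3.18), where 8.26% of all genes were higher and 12.3% lower, with the same limit. The median log2 ratio of all genes counted was 0.03, -0.15, 0.06, 0.18 and -0.16 in the Ibsp, Ifitm5, Hand2, Pappa2 and Rgs5 gates. Scaled by TMM factors in place of totals, Ltbp3 in the Ifitm5 gate (higher) and Tgfb1 and Tgfb2 in the Pappa2 gate (lower) passed 2-fold as well.

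**Figure D4:**
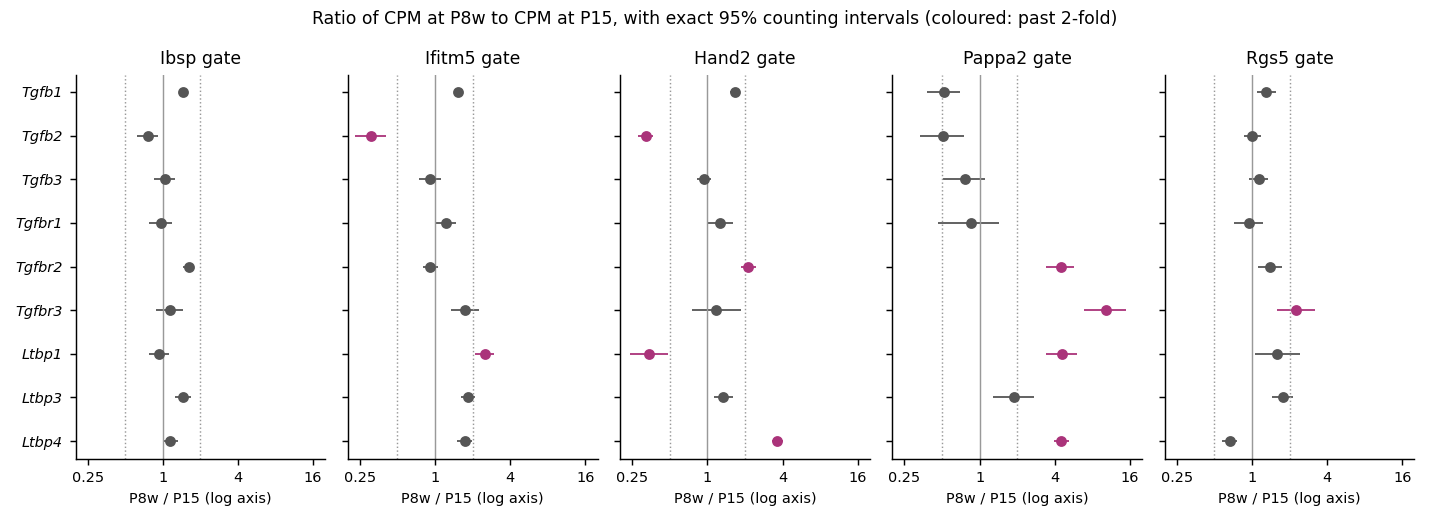
Ratio of the level at P8w to that at P15 (log axis) in the 5 mesenchymal gates for the 9 members other than Ltbp2, with exact 95% counting intervals as bars, dotted lines at 2-fold and colour for ratios past it. No point is coloured in the Ibsp gate, and Ltbp1 lies at 0.342 in the Hand2 gate but at 2.50 in the Ifitm5 and 4.56 in the Pappa2 gate.

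The shares of cells with a UMI followed the levels when each cell was thinned to 3000 UMIs, which left out 3499 shallower cells. For Tgfb2 in the Hand2 gate the share was 28.2% (exact 95% interval 22.6 to 34.4), 13.1% and 14.6% (11.3 to 18.3) of cells at P15, P25 and P8w, against 4.05% and 4.35% in leukocytes at P15 and P25. Unthinned, it was 64.3%, 39.7% and 34.4% at medians of 18470.5, 15004.5 and 10369.5 UMIs per cell, against 9.38% and 13.0% in leukocytes at 10163 and 15473.5 UMIs. For Ltbp4 the thinned Hand2-gate share was 19.9% (15.1 to 25.5), 49.6% and 58.0% (53.1 to 62.8), against 4.33% and 4.35% in leukocytes, and the unthinned share 68.4%, 89.7% and 86.4%. Tgfbr2 was found in 31.3%, 33.7% and 46.0% of thinned Ibsp-gated cells and in 23.5%, 14.8% and 20.1% of Ifitm5-gated cells, with 12.6%, 10.6% and 8.42% in epithelial cells. Unthinned, these shares were 75.2%, 72.2% and 76.0% for Ibsp, 67.2%, 58.4% and 55.2% for Ifitm5, and 43.4%, 48.0% and 28.5% for epithelial cells. Both kinase receptors were found together in 3.44%, 5.27% and 6.04% of thinned Ibsp-gated cells and in 33.7%, 30.7% and 22.6% of unthinned ones. Thinned epithelial cells held both in 1.06%, 0.164% and 1.05%. Thinned leukocytes held both in 4.33% at P15 and 12.6% at P25, above the Ibsp-gate share of the same library. Tgfbr2 was found in 19.6% and 49.3% of these leukocytes.

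Around the members, 33 other genes of the pathway were read from 4 lists. Of 14 genes of storage and activation, edgeR called none between the Ifitm5, Hand2 or Pappa2 gate and the Ibsp gate, with 6, 4 and 3 at an unadjusted p under 0.05. DESeq2 called 3 in the first of these, Thbs1, Lrrc32 and Itgb5, and none in the others. Lrrc32, which encodes the protein (GARP) that tethers latent TGF-beta to the cell surface, was higher in the Rgs5 gate (1.88 ± 0.28, SE, edgeR adjusted p = 0.0019), at 26.1, 13.2 and 11.5 CPM. The other mesenchymal gates held 2.42 to 6.15 CPM at P15, 1.18 to 10.5 at P25 and 1.89 to 13.4 at P8w, where the Pappa2 gate (4 UMIs) lay above the Rgs5 gate. The Krt14 gate was higher in 2 by edgeR, the integrin genes Itgb6 and Itgb8, whose integrins activate latent TGF-beta. It was lower in 8, Lrrc32 and the fibrillin gene Fbn1 among them, where 27.8% of all genes were called higher and 26.7% lower. Itgb6 was at 5.94, 10.4 and 5.91 CPM against at most 0.194 CPM in mesenchyme. Itgb8 was at 13.5, 4.65 and 4.30 CPM, below the Ifitm5 gate of each library (13.7, 11.1 and 7.89 CPM). DESeq2 called neither Itgb8 nor Lrrc32 in the Krt14 comparison. The Ptprc gate was higher in Nrros, which tethers latent TGF-beta on myeloid cells (96.4, 277 and 282 CPM against at most 1.72 CPM in mesenchyme), and in the thrombospondin gene Thbs1, and lower in Fbn1, Fbn2, Emilin1, Lrrc32 and Itgb1. Thbs1 was at 771 CPM in leukocytes at P15. At P25 it was at 171 CPM, below the Ifitm5 gate (209) and the Rgs5 gate (181) but above the other mesenchymal gates.

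Of 3 other receptors, Bambi, a decoy receptor without a kinase, was higher in the Ifitm5 than the Ibsp gate (2.65 ± 0.38, SE, edgeR adjusted p = 0.0043). Its level was 675, 803 and 570 CPM in the Ifitm5 gate against 137, 129 and 109 CPM in the Ibsp gate, with no overlap. Bambi, Eng and Acvrl1 were all lower in the Krt14 gate than in the mean of the mesenchymal gates, which for Bambi includes the high Ifitm5 gate. At P15 Bambi was at 119 CPM in the Krt14 gate, above the Hand2 (88.1) and Pappa2 (104) gates. At P25 and P8w, with 86.5 and 39.8 CPM, it lay below each mesenchymal gate. The Ptprc gate was higher in Acvrl1 and lower in Bambi and Eng. None of the 3 was called by edgeR or DESeq2 in the Hand2, Pappa2 and Rgs5 comparisons, where 0, 0 and 1 passed an unadjusted p of 0.05.

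Of 8 intracellular genes, Smurf1, a ubiquitin ligase for SMADs and receptors, was higher in the Rgs5 gate (0.60 ± 0.16, SE, edgeR adjusted p = 0.0313), and edgeR called none in the 3 comparisons with the Ibsp gate, where 3, 2 and 1 passed an unadjusted p of 0.05 in the Ifitm5, Hand2 and Pappa2 gates and DESeq2 called Smad3 in the first. By edgeR the Krt14 gate was higher in Zfyve9 and Tgif1 and lower in Ski, Smad3, Smurf2 and Smad4, and the Ptprc gate was higher in Tgif1 and lower in Zfyve9 and Smurf2. DESeq2 did not call Smad4 in the Krt14 comparison, and it called Smurf2 besides Smurf1 in the Rgs5 comparison. Of 8 response genes, Tsc22d1, a transcription regulator induced by TGF-beta, was higher in the Hand2 than the Ibsp gate (1.24 ± 0.25, SE, edgeR adjusted p = 0.0168). It held 959, 991 and 1236 CPM there against 386, 426 and 462 CPM, with no overlap. In this comparison 4 response genes passed an unadjusted p of 0.05, and DESeq2 called Ctgf and Ldlrad4 besides. Both were lower in the Hand2 gate of each library. Ctgf was at 47.0, 97.0 and 62.8 CPM against 172, 275 and 287 CPM, and Ldlrad4 at 11.9, 10.7 and 12.3 against 18.5, 25.4 and 25.7 CPM. Tgfbi was higher and 6 response genes lower in the Krt14 gate (all genes, 27.8% higher and 26.7% lower). In the Ptprc gate Tgfbi was higher and Ctgf, Tsc22d1 and Smad7 lower (all genes, 26.5% higher and 22.1% lower). No response gene was called by edgeR in the Ifitm5, Pappa2 and Rgs5 comparisons, with 1, 3 and 2 at an unadjusted p under 0.05, and DESeq2 called Ldlrad4 in the second.

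The genes whose levels ran most like each member over the 20 sums (Pearson correlation of log2(CPM + 1) among 6208 genes, a description only, as sums share libraries and differ in depth) were as follows. Tgfb1 ran with Prex1 (0.93) and Sdc3 (0.91), Tgfb2 with Enah (0.90) and Mcc (0.87), and Tgfb3 with Gulp1 (0.97) and Arhgef25 (0.96). Tgfbr1 ran with Stk17b (0.94) and Neu1 (0.94), Tgfbr2 with Chic2 (0.90) and Hebp1 (0.87), and Tgfbr3 with Tmed4 (0.93). Ltbp1 ran with Tspan11 (0.87) and Penk (0.87), Ltbp3 with Cnpy4 (0.93) and Kirrel (0.93), Ltbp4 with Map4k5 (0.87) and Mpdz (0.86), and the low Ltbp2 with Scara5 (0.79) and 1500009L16Rik (0.77).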

How the data were processed

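Pthrp-mCherry+ molar cells were profiled in 1 library each at P15, P25 and P8w. The authors deposited UMI counts per gene and cell from Cell Ranger, without normalization. The submitters' processing notes name version 6.1.2 and build mm10 throughout, whereas the file headers give 6.1.2 for P15 and P8w and 6.0.1 for P25. Replicate libraries were not analysed here, and p-values compare gates over libraries of different ages.

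Genes were joined by identifier, and no quality filter was applied to the 27089 cells before gating. Cells that passed no gate (8537, 5421 and 3543 at P15, P25 and P8w) entered no level or test reported here. Cells that passed several gates were left out, except that Ifitm5 with Ibsp counted as Ifitm5. Counts were summed per library and gate with at least 20 cells (20 sums, TMM factors 0.778 to 1.18) and tested with edgeR 4.0.16 (filterByExpr, robust quasi-likelihood), with DESeq2 1.42.0, other gates, cell filters and normalizations, and each library left out as alternatives. In simulated counts for Ifitm5 against Ibsp (13592 genes) edgeR recovered 58% of 100 genes changed 2-fold and 100% of 100 changed 4-fold. These counts had a fixed spread and no change with age, and only genes at 10 CPM or more were changed. Recovery at the spread of the real libraries, which includes age, was not tested. Sums of a library come from the same pooled cells, and their deviations correlated at 0.123 to 0.722 in every pair, so the library was also fitted as a block. Doublets were not removed, and leaving out the 6% of cells with the highest Scrublet scores was an alternative. Positions follow GENCODE M21, promoters RefSeq (8 of the 10 members matched).

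The members and lists were chosen with earlier results of these data known. All members are named. Of each pathway list, the genes called most often (up to 3) and any behind a count of 5 or fewer are named, and the 2 genes most like each member among genes with a mean of 20 CPM or more, without gate genes, and a few items that these rules name are not reported here. Python 3.11.15 and R 4.3.3 were used.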

Additional observations from a re-analysis of the deposited data

Results flagged for a closer look

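Members that moved in opposite directions between mesenchymal gates from P15 to P8w are listed by the ratio of the level at P8w to that at P15, with exact 95% counting intervals. With 1 library per age none of these differences was tested. Ltbp1 was 4.56 (3.42 to 5.97) in the Pappa2 gate and 0.342 (0.238 to 0.483) in the Hand2 gate. It was also above 1 in the Ifitm5 gate, at 2.50. In that gate 3 or 4 of 4 markers were highest at each age, but their sum went from 8184 CPM at P15 to 29707 at P8w. Ltbp4 was 4.51 (3.91 to 5.19) in the Pappa2 gate and 0.665 (0.581 to 0.761) in the Rgs5 gate, which held mural markers only at P15. Tgfb1 was 1.65 (1.51 to 1.81) in the Hand2 gate and 0.520 (0.377 to 0.699) in the Pappa2 gate, which held 22 cells at P8w.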

How the results depend on the processing

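Counts were taken of called members in each comparison and of changes past 2-fold with age over the mesenchymal gates. They stayed within 1.5 times of the reported count in 85 of 102 combinations of result and alternative. The reported count was 0 for Ifitm5, Hand2 and Pappa2 against Ibsp, and an alternative that also gave 0 was taken as unchanged. That was so in 14 of 16, 13 of 15 and 11 of 16 alternatives. The rule compares counts and not which members were called. No called member changed sign in any alternative. Without 1 library the counts ran from 0 to 1 (Ifitm5 against Ibsp), 0 to 1 (Hand2 against Ibsp), 0 to 1 (Pappa2 against Ibsp), 0 to 3 (Rgs5), 3 to 9 (Krt14) and 3 to 7 (Ptprc). A fit of the compared gates alone called 3 members for Hand2, 1 for Pappa2 (Tgfb3) and 2 for Rgs5 (Tgfb1 and Tgfb3). For Pappa2 against Ibsp, Ltbp4 made the count 1 with a gate of 5 times the mean, with each cell put in its highest gate, and with DESeq2. Of those added after seeing the data, Ifitm5-gated cells that failed the Ibsp gate gave 1 call, and the Rgs5 and Pappa2 gates from P15 alone gave 0 for Rgs5. The causes were not tested. The library as a block added Tgfbr2 in leukocytes and changed no other call. Changes past 2-fold from P15 to P8w numbered 11 over the 5 mesenchymal gates, and 10 to 15 in the alternatives. With 3 UMIs as the gate minimum, the Pappa2 gate held 11 cells at P8w and had no sum, so its count could not be given. Ptprc-gated cells at P8w (19) and Pappa2-gated cells at P8w (22) limit what those values can show, and without P25 the lone leukocyte sum is assumed to vary like the others.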
